A study of Mus musculus with 6 samples.

Results

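Bile acid synthesis and its feedback by the farnesoid X receptor (FXR) were followed in mouse liver through 10 genes. They were taken by symbol from the 24346 gene rows of the deposited table, and all 10 were among the 11493 genes tested. Cyp7a1 and Cyp8b1 belong to the classical route of synthesis, Cyp27a1 and Cyp7b1 to the alternative route, and Hsd3b7 and Akr1d1 act in both. Slc27a5 and Baat conjugate bile acids, and Nr1h4 (FXR) and Nr0b2 (SHP) carry the feedback.

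Whole liver RNA was sequenced from 6 male C57BL/6J mice, 3 in each group, to ask how forced lipophagy alters liver gene expression in a model of non-alcoholic steatohepatitis (NASH). Lipophagy is the delivery of lipid droplets to lysosomes by autophagy. All mice were 8 weeks old at the start, received a choline-deficient, amino acid-defined, high-fat diet (CDAHFD) for 6 weeks, were given 1 kind of adeno-associated virus serotype 8 intravenously, and then ate normal chow for 2 weeks. The vector expressed its protein from a liver-specific promoter, that of thyroxine-binding globulin. In the lipophagy group it carried LDTS-eLIR, which joins a lipid droplet targeting sequence (LDTS) from perilipin 1 to an engineered motif that binds LC3. In the control group it carried LDTS-LIR mut, in which that motif is mutated. Both groups therefore carried LDTS, which promotes lipid storage by itself, and no liver without a vector, or without the diet, was analysed here. The labels give 1 library for each numbered liver and do not say whether livers shared a cage or a day of collection.

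Hepatocytes make bile acids from cholesterol, and Cyp7a1 sets the pace of the classical route. Bile acids activate FXR, which induces the repressor SHP in hepatocytes and the hormone Fgf15 in the gut, and both lower Cyp7a1 and Cyp8b1. Cyp8b1 adds the 12-alpha hydroxyl group that separates cholic acid from chenodeoxycholic acid and, in mice, the muricholic acids.

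None of the 10 genes passed the test across the transcriptome. Slc27a5 and Baat, the pair that conjugates bile acids to taurine, had higher values in all 3 lipophagy livers than in any control liver, with means 27.7% and 16.7% above the control means. Of all tested genes 15.4% showed that pattern, as did 12 of 24 tested hepatocyte markers. By an unadjusted p below 0.05 in limma, 9 of these markers were higher in the same livers, against 11.5% of all genes. When the livers were scaled to the hepatocyte markers, the log2 change was 0.14 for Slc27a5 and 0.014 for Baat. The mean of Cyp7a1 was 22.1% below that of the control livers and that of Nr0b2 was 37.9% above it, but for both the 2 groups overlapped and the control livers differed among themselves more than the group means did. Nr1h4, the gene of FXR itself, had means within 5.15% of each other.

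The members' place in the genome is given in build GRCm38 of the mouse, from GENCODE release M21, with both ends counted from 1. Cyp7a1 lies at chr4:6265612-6275633 on the minus strand, Baat at chr4:49489422-49506557 on the minus strand and Nr0b2 at chr4:133553376-133556536 on the plus strand. Hsd3b7 lies at chr7:127800604-127803802 on the plus strand and Slc27a5 at chr7:12988346-12998192 on the minus strand. Cyp8b1, a gene of 1 exon, lies at chr9:121914356-121916305 on the minus strand and Nr1h4 at chr10:89454234-89533585 on the minus strand. Cyp27a1 lies at chr1:74713574-74737892 on the plus strand, Cyp7b1 at chr3:18071950-18243338 on the minus strand and Akr1d1 at chr6:37530173-37568815 on the plus strand.

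The promoters of Cyp8b1 and Nr0b2 are shown because they stand for the repressed end and the repressor of the loop, and because SHP acts on its targets through Nr5a2 (LRH-1) and Hnf4a, whose binding letters can be looked for. The sequences come from RefSeq (GRCm38.p6) and are the 150 bases before the gene's start, at chr9:121916306-121916455 on the minus strand for Cyp8b1 and at chr4:133553226-133553375 on the plus strand for Nr0b2. Capitals mark the letters TCAAGG or CCAAGG, the core of the Nr5a2 motif, and CAAAGTCC, the core of an Hnf4a motif.
Cyp8b1 promoter: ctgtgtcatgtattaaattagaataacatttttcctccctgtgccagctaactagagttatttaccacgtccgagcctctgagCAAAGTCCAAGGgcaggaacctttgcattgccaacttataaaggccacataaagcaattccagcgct
Nr0b2 promoter: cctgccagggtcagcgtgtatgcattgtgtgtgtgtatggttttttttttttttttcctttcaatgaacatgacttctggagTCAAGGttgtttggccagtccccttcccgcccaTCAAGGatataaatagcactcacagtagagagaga

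The Nr0b2 promoter held TCAAGG at 68 and at 35 bases before the start. In Cyp8b1, CAAAGTCC began 67 bases and CCAAGG 61 bases before the start, and these letters overlap. Promoters of 6 members were matched (Cyp27a1, Nr0b2, Akr1d1, Hsd3b7, Cyp8b1 and Nr1h4), and those of Cyp7a1, Cyp7b1, Baat and Slc27a5 are named only. Over the 250 bases before the start and on both strands, TCAAGG was in 2 of these 6 (Akr1d1, Nr0b2) and in 12.5% of 32851 promoters, CCAAGG in 1 (Cyp8b1) and in 18.2%, and CAAAGTCC in 1 (Cyp8b1) and in 1.20%. AGGTCA, the half-site of many nuclear receptors, was in 2 of the 6 (Akr1d1, Nr1h4) and in 14.0% of all. Its inverted repeat with 1 base between, the form that FXR prefers, was in none of the 6 and in 0.0061% of all promoters in this window. Only the exact letters were searched, and at that share their absence from 6 promoters does not show that FXR sites are lacking. CACGTG, the E-box of clock factors, was in 1 of the 6 (Nr0b2) and in 6.02% of all, and TTCNNNGAA, the motif of STAT factors, in 2 (Hsd3b7, Nr0b2) and in 7.02%. A match in these letters is a description of the sequence, and binding was not measured.

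Values are FPKM, the fragments per kilobase of transcript per M mapped fragments. Depth was 23.6 to 34.8 M fragments per liver, estimated from the steps between low FPKM values, which gave 441 fragments or more for every member in every liver. The summed FPKM of all genes was 622696 to 681138 in control livers and 709993 to 782392 in lipophagy livers, and rank correlations between livers were 0.980 to 0.991. Differences are given as log2 changes, lipophagy minus control, of log2(FPKM + 1) with the standard error from limma, a linear model fitted over all 11493 genes, and p-values are adjusted over all of them. With 3 livers in a group, an exact permutation test of a single gene cannot go below 0.1. Of all genes tested, 3, or 0.0261%, had an adjusted p below 0.05, and no member was among them. The lowest adjusted p of a member was 0.160. Hepatocyte markers were abundant in every liver, and Tf was the 1 of 25 listed markers that has no row in the table.

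The level of the members spanned from Slc27a5, the highest in 5 of 6 livers, to Cyp7a1, the lowest in 5 of 6. Per length of transcript, the conjugating and shared enzymes Slc27a5 and Hsd3b7 and the alternative enzyme Cyp27a1 held the first 3 places in every liver. The exceptions at the ends were control liver 2, where Hsd3b7 came first, and control liver 1, where Nr0b2 came last. The order of Slc27a5, Hsd3b7 and Cyp27a1 among themselves changed between livers. Cyp7a1, the gene that sets the pace of the classical route, made up 0.848% to 2.54% of the members' summed FPKM in a liver.

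**Figure D1:**
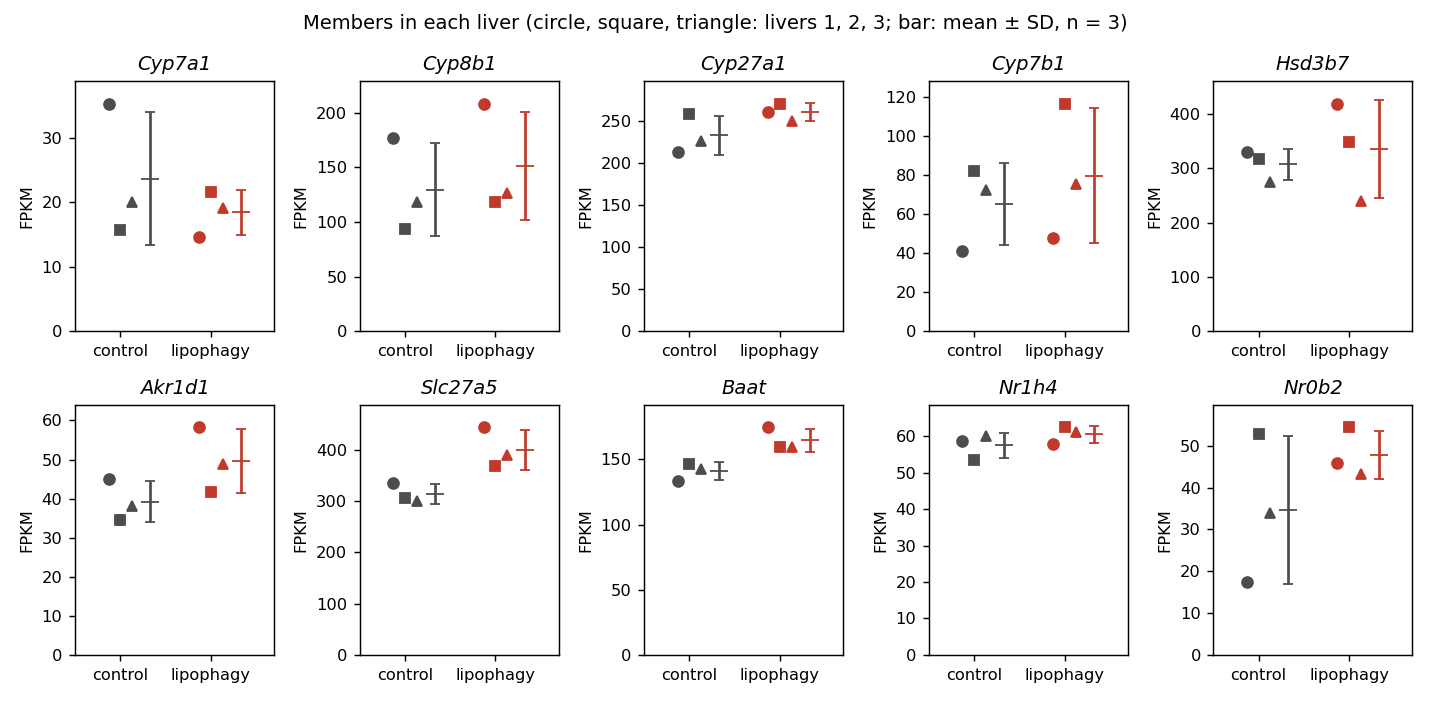
Expression of the 10 bile acid genes in each liver, in FPKM on linear axes from 0, with circles, squares and triangles for livers 1, 2 and 3 and bars for the mean ± SD of 3 livers in each group. Slc27a5 and Baat are the 2 genes whose 3 lipophagy livers all lie above the 3 control livers, and control liver 1 stands at the edge of its group for Cyp7a1 and Nr0b2.

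In the classical route, Cyp7a1, the cholesterol 7-alpha-hydroxylase, was at 35.3, 15.7 and 20.0 FPKM in control livers 1, 2 and 3 and at 14.7, 21.6 and 19.0 FPKM in lipophagy livers 1, 2 and 3. Control liver 1 was the highest and lipophagy liver 1 the lowest of all 6, and the other 4 lay between them in mixed order. The mean was 23.7 ± 10.3 FPKM in control and 18.4 ± 3.48 FPKM in lipophagy livers (SD, n = 3 each). Its log2 change was -0.28 with a standard error of 0.27 (limma, adjusted p = 0.572). Without control liver 1 it was 0.036, so the sign rested on that liver.

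Cyp8b1, the sterol 12-alpha-hydroxylase, was at 177, 93.3 and 119 FPKM in control livers and at 208, 118 and 127 FPKM in lipophagy livers. In both groups liver 1 was the highest, and the other livers of the 2 groups were interleaved. The means were 129.5 ± 42.7 and 151 ± 49.7 FPKM (SD, n = 3 each), with a log2 change of 0.22 (standard error 0.27, limma, adjusted p = 0.664). Without lipophagy liver 1 the change was -0.030.

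The ratio of Cyp8b1 to Cyp7a1 within a liver does not depend on a single scaling factor per library. It was 5.01, 5.95 and 5.92 in control livers and 14.2, 5.49 and 6.65 in lipophagy livers. In 5 livers the pair kept nearly the same proportion, although each gene varied about its mean. Lipophagy liver 1 stood apart because it combined the lowest Cyp7a1 with the highest Cyp8b1.

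In the alternative route, Cyp27a1, the mitochondrial sterol 27-hydroxylase, was at 214, 259 and 227 FPKM in control livers and at 262, 271 and 251 FPKM in lipophagy livers. Its groups overlapped by 1 liver, since control liver 2 was above lipophagy liver 3. The means were 233 ± 23.1 and 261 ± 10.3 FPKM (SD, n = 3 each), and the log2 change was 0.17 (standard error 0.095, limma, adjusted p = 0.359). The change was 0.00086 with quantile normalization and -0.042 when scaled to hepatocyte markers. With 1 liver left out it ranged from 0.11 to 0.24.

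Cyp7b1, the oxysterol 7-alpha-hydroxylase, was at 41.3, 82.0 and 72.3 FPKM in control livers and at 47.7, 117 and 75.3 FPKM in lipophagy livers. Liver 1 was the lowest of each group and lipophagy liver 2 the highest of all. The means were 65.2 ± 21.2 and 79.9 ± 34.8 FPKM (SD, n = 3 each), with a log2 change of 0.25 (standard error 0.34, limma, adjusted p = 0.701). Leaving out lipophagy liver 2 gave -0.063 and leaving out control liver 1 gave -0.040.

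The balance of the routes was described by ratios within a liver. Cyp7a1 to Cyp27a1 was 0.165, 0.0606 and 0.0883 in control livers and 0.0560, 0.0795 and 0.0760 in lipophagy livers. Cyp7b1 to Cyp7a1 was 1.17, 5.23 and 3.61 in control livers and 3.25, 5.41 and 3.95 in lipophagy livers. Control liver 1 had the highest value of the first ratio and the lowest of the second, and in both ratios the other 5 livers overlapped between groups. Cyp7b1 to Cyp27a1, the 2 steps of the alternative route, was 0.193, 0.317 and 0.319 in control and 0.182, 0.430 and 0.301 in lipophagy livers, lowest in liver 1 of each group.

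Of the enzymes that both routes use, Hsd3b7, the 3-beta-hydroxy-C27-steroid dehydrogenase, was at 329.9, 316 and 275 FPKM in control livers and at 419, 349 and 240.3 FPKM in lipophagy livers. The lipophagy livers held both the highest and the lowest value. The means were 307 ± 28.3 and 336 ± 89.8 FPKM (SD, n = 3 each), with a log2 change of 0.096 (standard error 0.19, limma, adjusted p = 0.799). Its exons share 1717 bases with the gene model Gm49388 on the same strand and 1729 bases with 9430064I24Rik on the opposite strand, and whether the counting used the strand of these stranded libraries is not given in the sources used here, so its level is uncertain. Without lipophagy liver 1 the change was -0.081.

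Akr1d1, the 5-beta-reductase that gives the steroid ring its bent shape, was at 45.1, 34.6 and 38.0 FPKM in control livers and at 58.2, 41.8 and 48.7 FPKM in lipophagy livers. The overlap came from control liver 1, which was above lipophagy liver 2. The means were 39.2 ± 5.34 and 49.6 ± 8.23 FPKM (SD, n = 3 each). The log2 change was 0.33 (standard error 0.14), with an unadjusted p of 0.0479 in limma and an adjusted p of 0.253. Without lipophagy liver 1 the change was 0.21, and the unadjusted p stayed below 0.05 in 2 of the 6 fits with 1 liver left out. The change of Akr1d1 was 0.19 with quantile normalization (unadjusted p = 0.216, limma) and 0.12 when scaled to hepatocyte markers (unadjusted p = 0.338, limma).

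Of the conjugating enzymes, Slc27a5, the bile acyl-CoA synthetase, was at 336, 306 and 299 FPKM in control livers and at 443, 368 and 389 FPKM in lipophagy livers. Every lipophagy liver was above every control liver. The means were 313 ± 19.4 and 400.3 ± 38.8 FPKM (SD, n = 3 each). The log2 change was 0.35 (standard error 0.099), with an unadjusted p of 0.00785 in limma and an adjusted p of 0.160.

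Baat, which transfers the activated bile acid to taurine or glycine, was at 134, 146 and 143 FPKM in control livers and at 174, 159.5 and 159 FPKM in lipophagy livers. Here too the groups did not overlap, and Baat had a small spread within groups, with coefficients of variation of 4.71% and 5.24%. The means were 141 ± 6.64 and 164 ± 8.62 FPKM (SD, n = 3 each). The log2 change was 0.22 (standard error 0.081), with an unadjusted p of 0.0263 in limma and an adjusted p of 0.212. The unadjusted p stayed below 0.05 in 3 of the 6 fits with 1 liver left out, and was 0.0653 in limma with the replicate number as a block. The ratio of Slc27a5 to Baat was 2.51, 2.09 and 2.09 in control livers and 2.54, 2.31 and 2.44 in lipophagy livers, so the groups overlapped in the proportion of the pair.

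Hepatocyte markers were read beside these 2 genes. By an unadjusted p below 0.05, 9 of the 24 measured markers were higher in lipophagy livers, against 11.5% of all genes, and 0 were lower. With quantile normalization 1 was higher and 3 were lower. The summed FPKM of the 24 was 105849 to 117758 in control and 123927 to 155574 in lipophagy livers. When each liver was scaled to the geometric mean of that list, the unadjusted p in limma was 0.142 for Slc27a5 and 0.866 for Baat, and that scaling moved the median of all genes from 0.020 to -0.14. With quantile normalization the values were 0.15 for Slc27a5 (unadjusted p = 0.171, limma) and 0.060 for Baat (unadjusted p = 0.340, limma). In bulk liver, fewer cells of a type and less RNA per cell cannot be told apart.

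In the feedback loop, Nr1h4, the gene of the bile acid receptor FXR, was at 58.8, 53.6 and 60.2 FPKM in control livers and at 58.0, 62.4 and 61.1 FPKM in lipophagy livers. All 6 livers lay close together and the groups overlapped. The means were 57.5 ± 3.45 and 60.5 ± 2.27 FPKM (SD, n = 3 each), with a log2 change of 0.072 (standard error 0.080, limma, adjusted p = 0.633). The change was -0.079 with quantile normalization and -0.13 when scaled to hepatocyte markers, where the median of all genes was -0.14.

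Nr0b2, the gene of SHP, a nuclear receptor without a DNA-binding domain that FXR induces, was at 17.3, 52.7 and 34.0 FPKM in control livers and at 45.9, 54.4 and 43.2 FPKM in lipophagy livers. The control livers spread over a 3.04-fold range and the lipophagy livers over a 1.26-fold range, and control liver 2 was above 2 of the 3 lipophagy livers. The means were 34.7 ± 17.7 and 47.8 ± 5.81 FPKM (SD, n = 3 each). The log2 change, 0.58 (standard error 0.33, limma, adjusted p = 0.361), was larger in size than that of 98.0% of tested genes, but its error was large too. Without control liver 1 it was 0.17 and without control liver 2 it was 0.94, so those 2 livers set its value.

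The ratio of Nr0b2 to Nr1h4 was 0.295, 0.983 and 0.564 in control livers and 0.791, 0.871 and 0.708 in lipophagy livers. Control liver 1 had the lowest ratio and control liver 2 the highest, and the 3 lipophagy livers lay between control livers 2 and 3. Control liver 1 combined the lowest Nr0b2 with the highest Cyp7a1 and the lowest Cyp7b1 and Cyp27a1. It deviated from the mean of the 6 livers by -1.16 in Nr0b2, 0.81 in Cyp7a1, -0.73 in Cyp7b1 and -0.20 in Cyp27a1, in log2 FPKM.

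**Figure D2:**
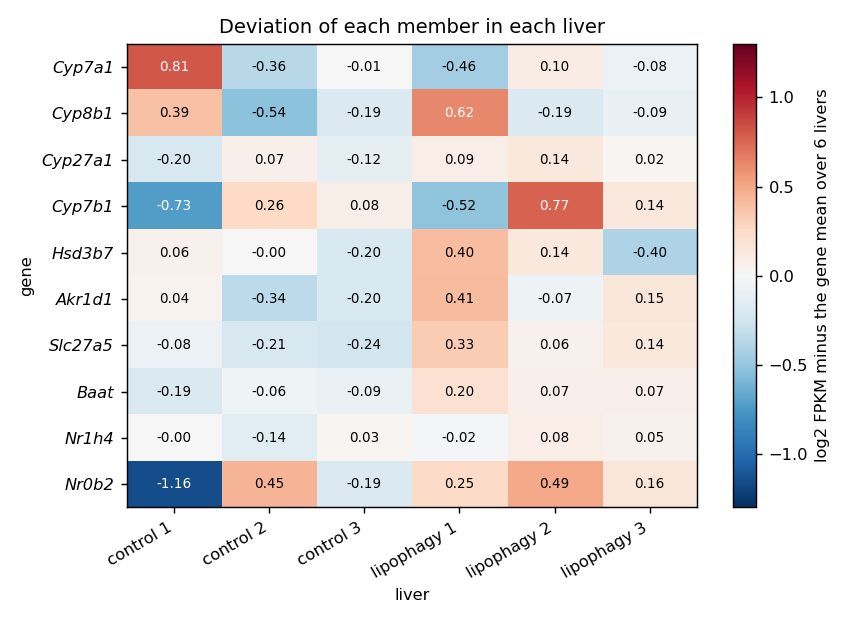
Deviation of each gene in each liver from its own mean over the 6 livers, in log2 FPKM, with red above and blue below the mean. Control liver 1 shows the lowest Nr0b2 (-1.16) beside the highest Cyp7a1 (0.81), and Slc27a5 and Baat are below 0 in the 3 control livers and above 0 in the 3 lipophagy livers.

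Variation across the 6 livers was compared between members in all 45 pairs, as correlations of log2 FPKM with exact permutation tests. No pair had an adjusted p below 0.05 (lowest 0.188 for Pearson's r and 0.375 for Spearman's rho), and 4 pairs had an unadjusted p below 0.05 by each measure. The genes of a pair were read from the same 6 libraries and so share their depth, and both groups enter each correlation. Cyp7a1 and Nr0b2, the regulated enzyme and its repressor, gave r = -0.847 (exact permutation p = 0.0653, adjusted p = 0.420) and rho = -0.371 (exact permutation p = 0.497, adjusted p = 0.895). Without the 2 livers farthest from the median of Cyp7a1, control liver 1 and lipophagy liver 1, r was -0.244, and without control liver 1 alone it was -0.197, so the relation rested on control liver 1.

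Among the 4 pairs was Cyp27a1 with Nr0b2, with r = 0.937 (exact permutation p = 0.00417, adjusted p = 0.188) and rho = 0.943 (exact permutation p = 0.0167, adjusted p = 0.375), and r = 0.766 without the 2 farthest livers. Akr1d1 and Slc27a5 gave r = 0.926 (exact permutation p = 0.0125, adjusted p = 0.281), rho = 0.886 (exact permutation p = 0.0333, adjusted p = 0.375), and r = 0.804 without the 2 farthest. All these pairs were chosen from the 45 for their values. For Cyp8b1 and Cyp7b1, r was -0.794 (exact permutation p = 0.0556, adjusted p = 0.417) and rho -0.829 (exact permutation p = 0.0583, adjusted p = 0.438). In both groups liver 1 had the highest Cyp8b1 and the lowest Cyp7b1, and without these 2 livers r was -0.0041. Within either group there are 3 livers, too few for a correlation.

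Counted together, 9 of the 10 members had a higher mean of log2(FPKM + 1) in lipophagy livers, as 6259 of all 11493 tested genes had, and 1, Cyp7a1, a lower one. That count was 7 with quantile normalization and 6 when scaled to hepatocyte markers. In limma, 3 members (Akr1d1, Slc27a5 and Baat) had an unadjusted p below 0.05 with a higher value, where 11.5% of all tested genes did, and 0 with a lower value, where 7.97% did. In 2 members (Slc27a5 and Baat) every lipophagy liver was above every control liver, against 15.4% of tested genes, and in 0 members every one was below, which 10.8% showed. The median log2 change was 0.22 over the members and 0.020 over all 11493 tested genes. That median was 0.058 with quantile normalization and 0.015 when scaled to hepatocyte markers, and with either of these scalings no member had an unadjusted p below 0.05.

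**Figure D3:**
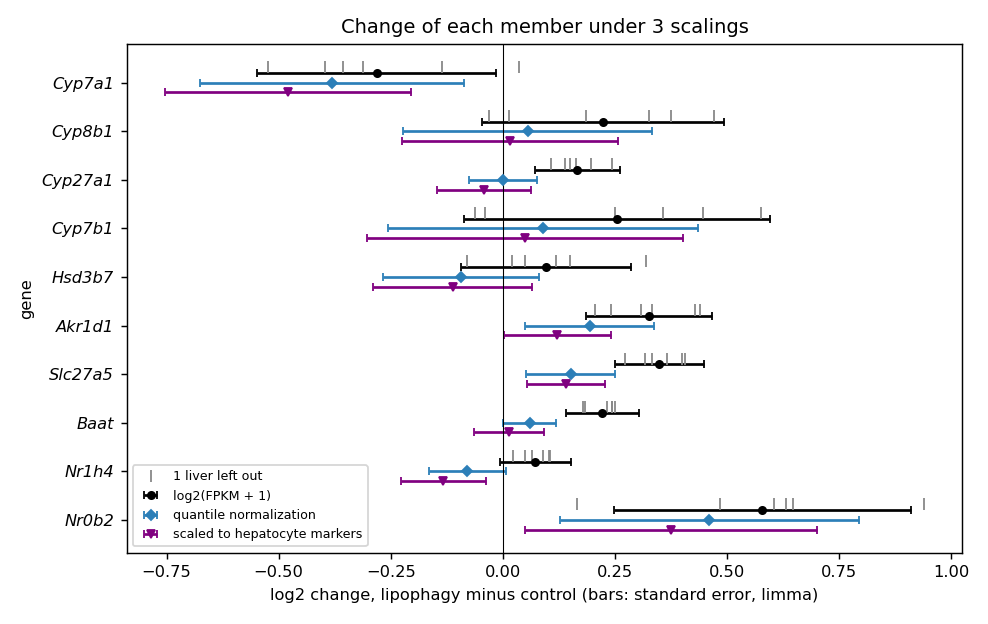
Log2 change of each gene (x axis, lipophagy minus control) as fitted on log2(FPKM + 1), with quantile normalization and with scaling to hepatocyte markers, with bars for 1 standard error from limma and grey ticks for fits with 1 liver left out. Slc27a5, Baat, Akr1d1 and Nr0b2 are above 0 under all 3 scalings and with any 1 liver left out, while Hsd3b7 and Nr1h4 are below 0 under the other 2 scalings.

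The other enzymes of bile acid synthesis gave a similar count. Of 24 listed genes, 21 were tested, 6 had an unadjusted p below 0.05 with a higher value and 0 with a lower value, against 11.5% and 7.97% of all genes, and the median log2 change was 0.18, with no adjusted p below 0.05. The 6 were Sult2a8, a bile acid sulfotransferase, Akr1c14, a 3-alpha-hydroxysteroid dehydrogenase, Cyp3a11, which hydroxylates drugs and bile acids, Cyp2c70, which makes muricholic acids in mice, Hsd17b10, a mitochondrial dehydrogenase, and Cyp2a12, a bile acid 7-alpha-hydroxylase. In all 6 the groups did not overlap, as in 8 of the 21 genes in the same direction, against 15.4% of all genes. With quantile normalization and with scaling to hepatocyte markers only Sult2a8 of the 21 still had an unadjusted p below 0.05 with a higher value, and the list median was 0.040 and -0.019.

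Sult2a8 was at 270.3, 240.2 and 239 FPKM in control livers and at 352, 360.1 and 383 FPKM in lipophagy livers, with a log2 change of 0.55 (standard error 0.088, limma, adjusted p = 0.0915). Cyp2c70 was at 306, 339 and 356 FPKM in control and at 383, 483 and 393 FPKM in lipophagy livers, with a log2 change of 0.32 (standard error 0.11, limma, adjusted p = 0.204). These 2 genes modify bile acids that the members have made, and in both all lipophagy livers were above the control livers. The log2 changes of Akr1c14, Cyp3a11, Hsd17b10 and Cyp2a12 were 0.41, 0.35, 0.30 and 0.24. Acnat2, an acyltransferase related to Baat, had the lowest change of the list at -0.35, with overlapping groups and a range from -0.81 without control liver 1 to -0.027 without lipophagy liver 3. Sult2a8, Akr1c14, Cyp3a11 and Acnat2 have close paralogs with which reads can be shared, so their values are uncertain.

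Regulators of the loop went in both directions. Of 38 listed 34 were tested, 1 had an unadjusted p below 0.05 with a higher value and 3 with a lower one, against 11.5% and 7.97% of all genes, and the median log2 change was 0.012. These counts were 2 and 2 with quantile normalization, and 0 and 9 when scaled to hepatocyte markers, with a list median of -0.18 beside -0.14 over all genes. Nr5a2, the factor that SHP represses, was at 5.42, 4.25 and 4.46 FPKM in control and at 5.11, 4.42 and 4.68 FPKM in lipophagy livers (log2 change 0.011, limma, adjusted p = 0.962). Hnf4a was at 92.3, 108 and 104 FPKM in control and at 96.8, 118 and 111 FPKM in lipophagy livers (log2 change 0.097, limma, adjusted p = 0.621). For both, the groups overlapped and the sign turned when the livers were scaled to hepatocyte markers. That marker list holds Hnf4a itself, whose sign also turned with quantile normalization (-0.057).

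The gut hormone Fgf15 was listed at 0 in all 6 livers. Its receptor Fgfr4 had log2 change 0.013 (standard error 0.10, limma, adjusted p = 0.955) and the coreceptor Klb 0.20 (standard error 0.11, limma, adjusted p = 0.362). With quantile normalization Fgfr4 was at -0.040 and Klb at 0.21, and scaled to hepatocyte markers they were at -0.18 and 0.026. Without lipophagy liver 1 the change of Klb was 0.11. The regulators with an unadjusted p below 0.05 were Nr1i3 (CAR), a xenobiotic receptor, with a higher mean, and Jun, Nr2f2 and Onecut1 with a lower one. Their log2 changes were 0.23, -0.41, -0.31 and -0.86, with adjusted p-values in limma of 0.176, 0.131, 0.163 and 0.240. Scaled to hepatocyte markers, Nr1i3 was at 0.024 (unadjusted p = 0.772, limma) and Jun at -0.59 (adjusted p = 0.0418, limma). With quantile normalization Nr1i3 was at 0.084 (unadjusted p = 0.293, limma) and Jun at -0.45 (adjusted p = 0.120, limma).

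Onecut1 (HNF6), a liver factor, was at 4.24, 0.983 and 0.934 FPKM in control livers and at 0.531, 0.341 and 0.653 FPKM in lipophagy livers. Control liver 1, the one with the highest Cyp7a1, was far above the rest, and without it the log2 change was -0.38. Egr1, an immediate early gene, had the most negative change of the list at -1.35 (standard error 0.65, limma, adjusted p = 0.293), with overlapping groups and a range from -1.97 without control liver 1 to -0.74 without control liver 2. The highest change was that of Nr1i2 (PXR), 0.28, also with overlapping groups, and 0.13 without lipophagy liver 3.

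Bile acid transporters and other FXR targets included the 2 lowest adjusted p-values among the bile acid genes, both of uptake carriers. Of 23 listed genes 20 were tested, 3 had an unadjusted p below 0.05 with a higher value and 2 with a lower one, against 11.5% and 7.97% of all genes, and the median log2 change was 0.12. With quantile normalization and with scaling to hepatocyte markers these counts were 2 and 4, with medians of -0.0055 and -0.087. Slc10a1 (NTCP), which takes bile acids up from blood, was at 257, 225 and 221 FPKM in control and at 451, 357 and 397 FPKM in lipophagy livers, with a log2 change of 0.77 (standard error 0.11, limma, adjusted p = 0.0802). Scaled to hepatocyte markers its log2 change was 0.56 (limma, adjusted p = 0.0398), below the threshold, in a fit that called 226 genes over the whole table. With quantile normalization it was 0.57 (limma, adjusted p = 0.116), above the threshold. Slco1a1, an uptake carrier, was at 55.1, 58.7 and 52.8 FPKM in control and at 82.3, 84.7 and 87.5 FPKM in lipophagy livers, with a log2 change of 0.60 (standard error 0.077, limma, adjusted p = 0.0710). It has a close paralog in Slco1a4, so reads may be shared. Slco1b2, another uptake carrier, had a log2 change of 0.24 (limma, adjusted p = 0.230), which was 0.058 with quantile normalization and 0.032 when scaled to hepatocyte markers (unadjusted p = 0.590 and 0.784, limma).

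Abcb11, the bile salt export pump and a direct target of FXR, was at 81.3, 104 and 86.6 FPKM in control and at 99.3, 105 and 88.5 FPKM in lipophagy livers (log2 change 0.11, limma, adjusted p = 0.610), and its groups overlapped. The sign turned with quantile normalization (-0.047) and when scaled to hepatocyte markers (-0.097). Slc51b, a part of the basolateral exporter, was at 1.57, 4.41 and 2.91 FPKM in control and at 2.46, 1.84 and 2.21 FPKM in lipophagy livers (log2 change -0.26, limma, adjusted p = 0.552), and its partner Slc51a was listed at 0. The change of Slc51b was -0.54 without control liver 1 and -0.0059 without control liver 2. Like Nr0b2, Slc51b was lowest in control liver 1 and highest in control liver 2 among the controls. Abcb4, which moves phosphatidylcholine into bile, was at 75.7, 86.1 and 80.0 FPKM in control and at 58.7, 71.0 and 61.5 FPKM in lipophagy livers, with a log2 change of -0.34 (standard error 0.097, limma, adjusted p = 0.160). Fgf21, a hepatic hormone, was at 3.52, 3.61 and 2.34 FPKM in control and at 1.41, 1.58 and 0.986 FPKM in lipophagy livers, with a log2 change of -0.83 (standard error 0.15, limma, adjusted p = 0.111) and, scaled to hepatocyte markers, of -0.97 (limma, adjusted p = 0.0398). In both, all lipophagy livers were below the control livers.

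**Figure D4:**
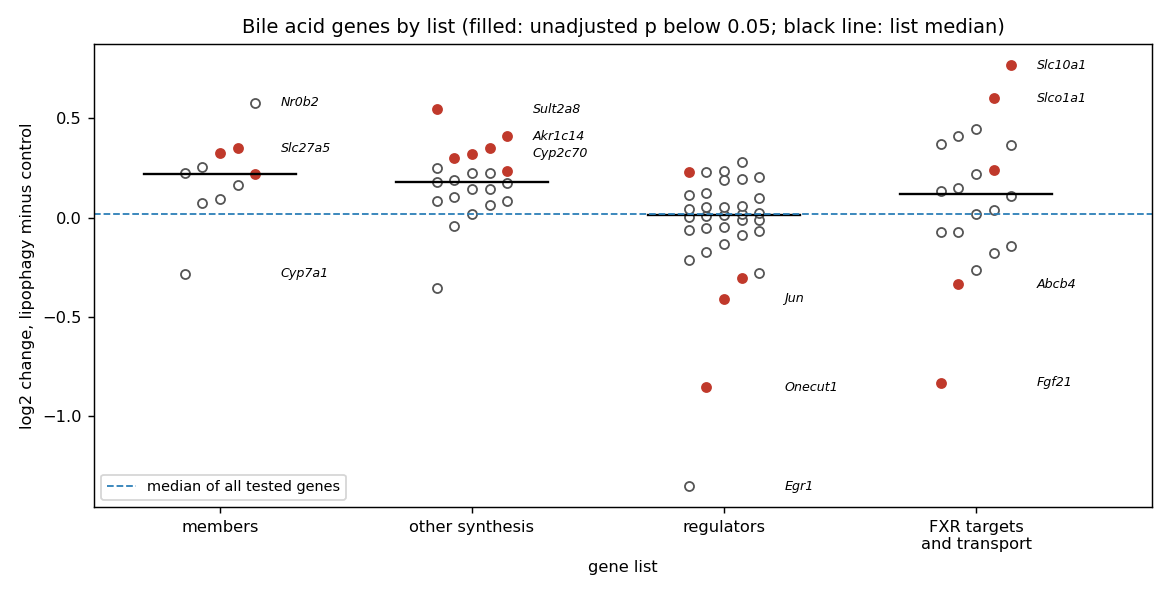
Log2 change (lipophagy minus control) of each tested gene in the 10 members and in 3 further lists, with filled points for an unadjusted p below 0.05 in limma, black lines for list medians and a dashed line for the median of all tested genes. The medians are 0.22 for the members, 0.18 for other synthesis genes, 0.012 for regulators and 0.12 for FXR targets and transport, and the dashed line is at 0.020.

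Markers of other cell types were read beside the members. Of 10 stellate cell markers, 6 had an unadjusted p below 0.05 with a lower value and 0 with a higher one, against 7.97% and 11.5% of all genes, and their summed FPKM was 183 to 193 in control and 144 to 171 in lipophagy livers. Of 11 tested macrophage markers 3 were lower and 1 was higher by the same rule, or 6 and 0 when scaled to hepatocyte markers, and their sums, 548 to 728 and 542 to 671 FPKM, overlapped. None of the 9 tested bile duct markers passed that rule, although 8 had a lower mean, with a median log2 change of -0.41 (sums 25.4 to 34.0 and 22.1 to 32.1 FPKM), and none of the 8 endothelial markers did (sums 33.7 to 42.9 and 38.0 to 60.0 FPKM). Of 7 intestinal markers 3 were tested, 2 of them lower by this rule, with sums of 469.8 to 688 FPKM in control and 255 to 364 FPKM in lipophagy livers. Most of that sum was Apoa4, which hepatocytes also make, and Cdx2, a defining intestinal factor, was listed at 0 in all 6 livers. The part of these cells in the members' values was not tested.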

How the data were processed

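RNA sequencing of poly(A) RNA from 6 mouse livers, 3 control and 3 lipophagy, was analysed from 1 deposited table, with groups as labelled. Its values are FPKM that the authors computed for each symbol and sample from read pairs of 100 bases. Per the submitters' processing notes, TopHat2 2.0.13, Bowtie2 2.2.3, SAMtools 0.1.19 and Cufflinks 2.2.1 were used with build mm10. Libraries were stranded (TruSeq). The annotation and the strand setting of the counting are not given in the sources used here. Count models do not suit FPKM, and a value of 0 can be a failed estimate.

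The 11493 genes averaging 0.5 FPKM or more were compared on log2(FPKM + 1) with limma 3.58.1 in R 4.3.3 (intensity trend, no covariates, two-sided), Benjamini-Hochberg adjustment across the table and a threshold of 0.05. Fold changes on this scale understate the change of low genes. The fit was tested on simulated data whose log2 changes were larger than those of any member and were set in genes of small spread. That test does not show how well changes of the members' size are found. Livers were compared before averaging, and 0 pairs held identical values. Since nothing says more than that the livers are separate samples, p-values measure the spread between these samples. Correlations used scipy 1.17.1 in Python 3.11.15 (pandas 2.3.3, numpy 2.4.6, matplotlib 3.10.9), two-sided over all pairings. Depth was estimated from the steps of low FPKM values of genes with 1 transcript, whose length was reduced by 200 bases, and 73.0% to 81.3% of 319 to 388 such genes per liver came within 0.1 of a whole number of fragments. With no length taken off the estimates were 20.9 to 30.8 M. Fragment numbers cover counting error only, which was at most 4.76% for a member.

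The members, the lists and the tests were chosen with earlier results of these data known. Genes named beside the members were those of the synthesis, regulator and transport lists with an unadjusted p below 0.05 and groups that did not overlap, the highest and lowest of each list, and 10 genes known from the feedback. Alternatives were other pseudocounts (0.1, 0.5), filters (none, 0.1, 1 FPKM), quantile normalization, equal medians, scaling to hepatocyte markers, no trend, quality weights, a replicate block, each liver left out and, chosen after seeing the data, both livers numbered 1 left out.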

Additional observations from a re-analysis of the deposited data

How the results depend on the processing

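No member had an adjusted p below 0.05 in any of 18 alternatives (lowest 0.0961, Slc27a5 with quality weights), and 4 members (Akr1d1, Slc27a5, Baat, Nr0b2) kept their sign in all. Against 3 genes called over the whole table, 1 was called with no filter, 226 with scaling to hepatocyte markers, 39 with quality weights, 43 with the replicate block, 7 with both livers numbered 1 left out, and 1 to 11 with 1 liver left out. The members with an unadjusted p below 0.05 numbered 3, but 0 with quantile normalization, 0 with scaling to hepatocyte markers and 1 to 4 with 1 liver left out. Their median change of 0.22 became 0.058 (quantile), 0.015 (hepatocyte markers) and 0.16 to 0.28 (1 liver left out). Unadjusted calls over the table split into 1327 higher and 916 lower, 745 and 899 with quantile normalization, and 173 and 2999 with scaling to hepatocyte markers.

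The sign turned with quantile normalization for Hsd3b7 (-0.093), Nr1h4 (-0.079), Hnf4a (-0.057), Fgfr4 (-0.040) and Abcb11 (-0.047). With scaling to hepatocyte markers the sign turned for Cyp27a1 (-0.042), Hsd3b7 (-0.11), Nr1h4 (-0.13), Nr5a2 (-0.16), Fgfr4 (-0.18), Abcb11 (-0.097) and Hnf4a (-0.11), which is itself on that marker list. With both livers numbered 1 left out the sign turned for Cyp7a1 (0.18) and Hsd3b7 (-0.027). With 1 liver left out, the log2 change ranged from -0.52 to 0.036 for Cyp7a1, from -0.030 to 0.47 for Cyp8b1, from -0.063 to 0.57 for Cyp7b1, from -0.081 to 0.32 for Hsd3b7, from -0.047 to 0.098 for Nr5a2, from -0.058 to 0.12 for Fgfr4, from -0.43 to 0.10 for Lgals4 and from -0.14 to 0.030 for Nr1d1. The log2 ratio of Cyp7b1 ranged from -0.079 to 0.999 against Cyp7a1 and from -0.20 to 0.42 against Cyp27a1. The causes were not tested.

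The labels do not say that replicate numbers pair the livers. The deviations of livers numbered 1, 2 and 3 correlated between groups at 0.25, 0.23 and -0.057. Control livers 1 and 2 correlated best with the lipophagy liver of the same number, but control liver 3 with lipophagy liver 2 (0.25). These values do not settle whether the numbers pair the livers, and the main fit did not take them as pairs. With the replicate number as a block, the members with an unadjusted p below 0.05 were Akr1d1, Slc27a5 and Nr0b2, and the lowest adjusted p was 0.163. For Cyp8b1 and Cyp7b1 the unadjusted p in limma was 0.0579 and 0.0557 with the block, and 0.430 and 0.477 without it. Of the other genes named with the bile acid lists, adjusted p-values under 0.05 came with the block for Egr1 (0.0117), Fgf21 (0.0199) and Slc10a1 (0.0321), with quality weights for Slco1a1 (0.0388), Sult2a8 (0.0435) and Slc10a1 (0.0435), and with scaling to hepatocyte markers for Slc10a1 (0.0398), Fgf21 (0.0398) and Jun (0.0418). Without the block, standard errors were 0.27 to 0.34 for Cyp7a1, Cyp8b1, Cyp7b1 and Nr0b2 with 3 livers in a group. With the block they were 0.26, 0.10, 0.11 and 0.22, in that order. Counting errors were at most 4.76% for a member.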

Other observations

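Lists of liver zone, clock and sex-biased genes were read beside the bile acid genes. Of 13 periportal genes 6 had an unadjusted p below 0.05 with a higher value and 1 with a lower one, against 11.5% and 7.97% of all tested genes, with a median log2 change of 0.30. The same background applies to the lists that follow. The highest was Sds, a serine dehydratase, at 110.0, 69.8 and 80.0 FPKM in control and 167, 84.7 and 224 FPKM in lipophagy livers (log2 change 0.78, limma, adjusted p = 0.248), with overlapping groups, and the lowest Cdh1 (-0.30, limma, adjusted p = 0.197). The change of Sds ranged from 0.48 without lipophagy liver 3 to 1.18 without lipophagy liver 2. Of 13 pericentral genes 2 had a higher and 0 a lower value by the same rule, with a median of 0.18, from Slc1a2, a glutamate carrier (0.54, limma, adjusted p = 0.160), to Axin2 (-0.22, limma, adjusted p = 0.378). Scaled to hepatocyte markers, 2 periportal genes had a higher and 2 a lower value by that rule, and 0 pericentral genes a higher and 1 a lower value.

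Of 15 genes known to be higher in male liver, 10 had a higher and 5 a lower mean in lipophagy livers, with a median of 0.25. An unadjusted p below 0.05 was seen for 5 of the higher (2 when scaled to hepatocyte markers) and 0 of the lower genes. Cyp7b1 belongs to this list, and so does Slco1a1. Cyp4a12a, a fatty acid hydroxylase with a close paralog, was at 54.6, 87.3 and 80.8 FPKM in control and 125, 123 and 115 FPKM in lipophagy livers (log2 change 0.72, limma, adjusted p = 0.134), and was lowest in control liver 1, as Cyp7b1 was. Mup20, also with close paralogs, had the lowest change (-0.30, limma, adjusted p = 0.573). It ranged from -0.54 without control liver 1 to -0.047 without lipophagy liver 1.

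Of 17 clock genes 11 had a higher and 6 a lower mean, with a median of 0.11, and an unadjusted p below 0.05 was seen for 2 of the higher and 0 of the lower genes. Ciart, a clock repressor, was at 2.46, 2.62 and 4.76 FPKM in control and 2.98, 4.50 and 35.5 FPKM in lipophagy livers, where lipophagy liver 3 stood apart. Arntl had the lowest change (-0.26), and Nr1d1, a repressor in the clock, was at 32.1, 36.8 and 37.6 FPKM in control and 33.7, 38.7 and 30.3 FPKM in lipophagy livers. Among cell type markers the extremes were Tat (0.995) and Hpx (-0.17) for hepatocytes, Aqp1 (0.25) and Epcam (-0.55) for bile duct, Lrat (0.25) and Col1a1 (-0.75) for stellate cells, Vsig4 (0.40) and Cd68 (-0.38) for macrophages, Clec4g (0.43) and Pecam1 (-0.11) for endothelium, and Lgals4 (-0.18) and Apoa4 (-1.23) for intestine, all as log2 changes. Several depended on 1 liver. Without lipophagy liver 1, Aqp1 was at 0.042, Lrat at 0.13 and Clec4g at 0.18. Epcam was at -0.32 without lipophagy liver 3, and Pecam1 at -0.028 without lipophagy liver 2.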
